A study of Tigriopus californicus with 9 samples.

Results

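Transcript levels were compared between San Diego (SD) and Santa Cruz (SCN) animals of Tigriopus californicus, a small copepod of rocky splash pools. The comparison takes the libraries that the titles give as SD replicates 1 to 3 and SCN replicates 1 and 2, which are 5 of the 9 libraries of the series, and all 13758 measured features. The other 4 libraries are third-generation hybrids of these populations, SDf x SCNm and SCNf x SDm with 2 libraries each, and enter the estimate of the spread. Each library is polyA RNA from 1 pool of 400 to 500 animals, all developmental stages together, taken from stock cultures held at 20 °C with 12 h of light. Both populations carry their own genomes with no engineered allele, and all pools stood in a 20 °C bath for 2 h before lysis, so no group was heat-treated. In whole-animal pools, more animals of a stage or sex and more RNA per cell cannot be told apart. Per the labels, run 1 held SD replicate 1 with SCN replicate 1, and run 3 held SD replicate 3 with SCN replicate 2. Run 2 held SD replicate 2 alone, so differences that passed the test are also given inside runs 1 and 3. Among the hybrids, the SDf x SCNm libraries were in runs 4 and 5 and both SCNf x SDm libraries in run 5. The latter pair thus adds no spread between runs to the estimate.

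Populations of this species along the Pacific coast exchange few migrants and have diverged strongly in both nuclear and mitochondrial DNA. Southern animals, San Diego among them, survive higher temperatures than northern ones, and the species is a model for local thermal adaptation and for hybrid breakdown. Heat shock factor and the chaperones it switches on, the ubiquitin system that tags damaged proteins, the cuticle that is renewed at every molt, and the mitochondrial respiratory chain are all parts of copepod physiology that have been followed in that work.

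The depth differed widely, at 17.4 M, 5.46 M and 1.00 M recovered reads for SD replicates 1 to 3, and 4.09 M and 1.75 M for the SCN libraries. Both run 3 libraries were shallow, with 0 reads in 7.54% of features in SD replicate 3 and 8.18% in SCN replicate 2, against at most 0.669% in the other parental libraries. SCN replicate 2 stood apart. The median feature was at 4.11 on the log2(RPKM + 1) scale in it and at 4.61 to 4.74 in the other parental libraries. Its yolk markers had a median of 8.68, against 12.36 in SCN replicate 1 and 10.40 to 11.65 in SD. Its cuticle list, at 4.03, was close to the 4.21 of SD replicate 3 from the same run, below the 5.04 and 4.62 of SD replicates 1 and 2 and the 5.97 of SCN replicate 1. The labels do not say whether replicates are separate cultures, and the p-values then reflect the spread between these libraries, which may be technical.

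A small set of features separated the populations beyond the spread between libraries. With limma on log2(RPKM + 1) and a Benjamini-Hochberg adjusted p under 0.05, 24 features were higher in SD (0.174% of those tested) and 35 were lower (0.254%), 59 in all (0.429%). All 59 differed in the same direction in run 1 and in run 3, as they must, since their groups do not overlap. Over all 13758 features, 7652 had the same direction in both runs. The smallest within-run difference among the 59 was 1.54 on the log2 scale. At an unadjusted p under 0.05, 1689 features (12.3%) were higher in SD and 722 (5.25%) lower. Over all features the median difference was 0.23, and it was 0.02 within run 1 and 0.46 within run 3. Leaving out SCN replicate 1 raised the count to 3085, and leaving out SD replicate 1, 2 or 3 lowered it to 11, 19 or 13. Leaving out 1 hybrid library, which enters only the spread, gave 19 to 22. Without SCN replicate 2 the count was 60, of which 25 were among the 59.

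**Figure D1:**
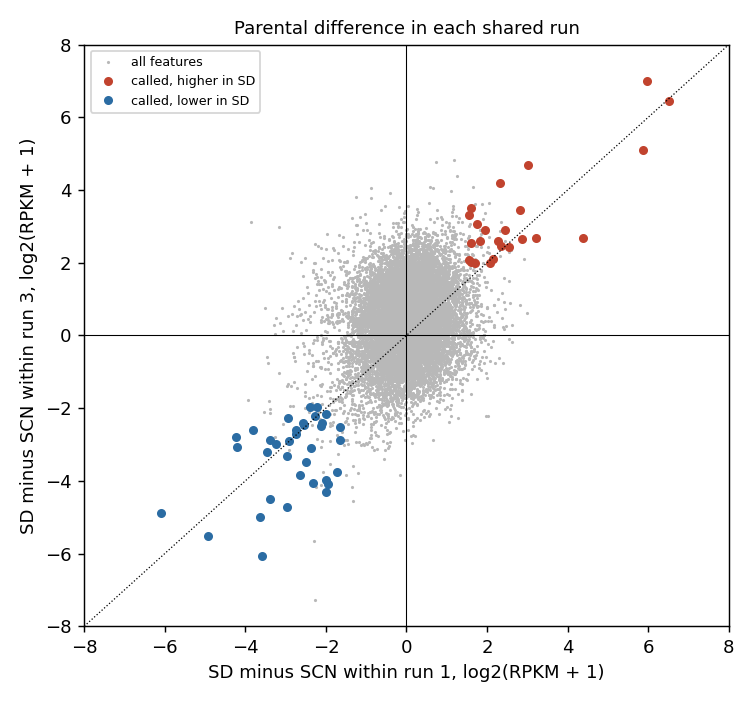
Difference between SD and SCN within run 1 (x axis) and within run 3 (y axis), both in log2(RPKM + 1), for all 13758 features (grey), with the 24 called higher (red) and 35 called lower (blue) in SD. All called features lie in the quadrants where both runs have the same sign, which follows from their groups not overlapping. The whole cloud is shifted upward, to a median of 0.46 in run 3.

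The within-run view asks for no model. A difference of at least 4-fold (log2 of 2) in both runs was found for 25 features higher in SD (0.182%) and 45 lower (0.327%), against 11 (0.080%) that differed by as much in opposite directions. Of these, 15 higher and 28 lower were among the 59 called. The spread inside the runs was not the same. From the lower to the upper quartile, features lay between -0.43 and 0.45 in run 1 and between -0.22 and 1.18 in run 3.

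Among the features that were lower in SD, 6 had an informative name. The largest was a pyridine nucleotide-disulfide oxidoreductase domain protein (Contig4724), of a family of flavin enzymes that move electrons to or from NADH and NADPH. It stood at 9.24, 18.1 and 10.5 RPKM in SD replicates 1 to 3 and at 310 and 532 RPKM in SCN replicates 1 and 2. Even the highest SD library was far below the lowest SCN library. On the log2(RPKM + 1) scale, which understates differences of low features, the difference was -4.95 (SE 0.39, limma adjusted p = 0.000957), and it was -4.92 inside run 1 and -5.53 inside run 3.

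Contig1785, 108 bases long, is named as ubiquitin, the tag that marks proteins for breakdown. It read 48.0, 44.9 and 74.8 RPKM in SD and 902 and 641 RPKM in SCN. The groups were widely apart, with a difference of -3.78 (SE 0.36, limma adjusted p = 0.00197) and values of -4.20 and -3.08 in runs 1 and 3. Ubiquitin genes are near-identical copies of each other, and the sources used here do not say how shared reads were assigned. GTP cyclohydrolase I (Contig4801), the entry enzyme of the pterin pathway that yields eye pigments and the cofactor tetrahydrobiopterin, read 35.7, 55.2 and 29.3 RPKM in SD against 213 and 166 in SCN. That difference of -2.25 came with a limma adjusted p of 0.0491, and the run values were -2.54 and -2.46. An mtr3-like component of the RNA exosome (Contig24202), the complex that trims and degrades RNA, was at 30.3, 30.4 and 33.0 RPKM in SD and 134 and 189 in SCN. The 3 SD libraries were nearly alike here, and the difference was -2.31 (limma adjusted p = 0.0418), with -2.11 in run 1 and -2.48 in run 3.

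A retrotransposon-like contig (Contig23597) was at 4.48, 2.87 and 1.40 RPKM in SD, on 44, 7 and 0 reads, and at 20.0 and 39.6 RPKM in SCN, on 61 and 54 reads. The populations did not overlap, and the difference was -2.98 (SE 0.48, limma adjusted p = 0.0348). It was -1.94 in run 1 and -4.08 in run 3. The sixth, a nas-13-like zinc metalloproteinase (Contig2534) of the astacin family of secreted proteases, was at 15.5, 17.5 and 18.0 RPKM in SD against 75.8 and 72.9 in SCN. Libraries within each population were close together, and the difference was -2.07 (limma adjusted p = 0.0340), with -2.21 and -1.96 in the runs.

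**Figure D2:**
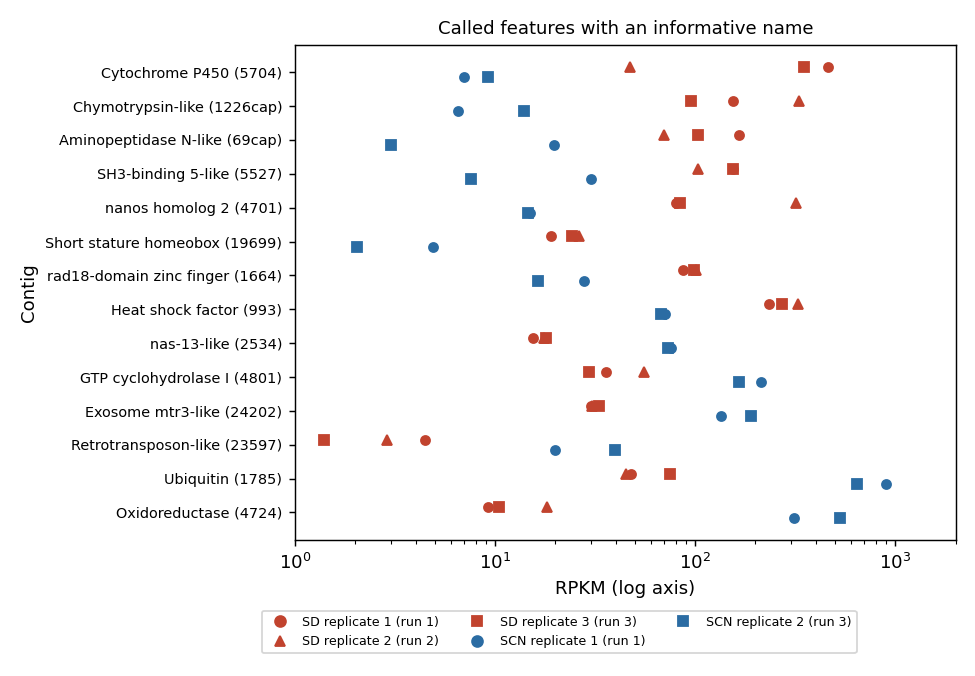
RPKM on a log axis of the 14 called features with an informative name, 1 point per parental library, with SD in red, SCN in blue and the marker shape giving the run. SD and SCN points do not overlap in any of the 14, and the cytochrome P450 has the widest spread among SD libraries, from 47.0 to 462 RPKM.

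The other 8 named features were higher in SD. Contig993 is heat shock factor, the protein that activates chaperone genes under heat. It was at 233, 327 and 272 RPKM in SD and at 70.6 and 67.3 RPKM in SCN. All SD libraries were above both SCN libraries, with a difference of 1.98 (SE 0.33, limma adjusted p = 0.0405). The difference was 1.71 within run 1 and 2.00 within run 3, although no pool had been heat-treated.

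A pair of proteases was higher in SD. A chymotrypsin-like protein (Contig1226cap), of a family of gut serine proteases, was at 155, 330 and 94.7 RPKM in SD and 6.54 and 14.0 RPKM in SCN, a difference of 4.00 (SE 0.53, limma adjusted p = 0.0146), or 4.37 in run 1 and 2.68 in run 3. An aminopeptidase N-like protein (Contig69cap), of a family that trims peptides at membranes, was at 166, 69.9 and 103 RPKM against 19.6 and 3.01, a difference of 3.56 (limma adjusted p = 0.0491), or 3.02 and 4.69 in the runs. For Contig69cap the difference was 4.74 without SCN replicate 1 (limma adjusted p = 0.00508) and 2.38 without SCN replicate 2 (limma adjusted p = 0.0771). With the nas-13-like protease, secreted proteases thus differed in both directions.

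Contig5704, a cytochrome P450 and so one of the oxidases that process steroids, lipids and toxins, was at 462, 47.0 and 351 RPKM in SD and at 6.98 and 9.16 RPKM in SCN. SD replicate 2 lay well below the other SD libraries, though still above SCN. The difference was 4.46 (SE 0.78, limma adjusted p = 0.0491), with 5.86 within run 1 and 5.11 within run 3. Without SD replicate 2 the Contig5704 difference was 5.49 (limma adjusted p = 0.00121).

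Nanos homolog 2 (Contig4701), of a family of translational repressors kept in germ cells, was at 80.3, 319 and 84.3 RPKM in SD and 15.0 and 14.6 RPKM in SCN. Only SD replicate 2 exceeded the other SD libraries by several fold, and the difference was 3.04 (SE 0.54, limma adjusted p = 0.0498), with 2.34 in run 1 and 2.45 in run 3. Without that library it was 2.40 (limma adjusted p = 0.0437), and the nanos call passed in 5 of 21 alternative fits. Short stature homeobox (Contig19699), a transcription factor that in vertebrates acts in limb growth, was at 19.0, 26.2 and 24.3 RPKM in SD and 4.91 and 2.03 RPKM in SCN, the latter on 9 and 1 reads. This difference of 2.50 had a limma adjusted p of 0.0348 and was 1.76 and 3.06 in the runs. A zinc finger protein with a rad18 domain (Contig1664) was at 86.6, 101 and 98.9 RPKM against 27.9 and 16.3, a difference of 2.11 (limma adjusted p = 0.0348) and of 1.6 and 2.53 in the runs. Contig5527, named for the SH3 domain-binding protein 5, was at 155, 103 and 155 RPKM against 30.3 and 7.53, a difference of 3.06 (limma adjusted p = 0.0405) and of 2.32 and 4.19 in the runs. For Contig5527 it was 4.00 without SCN replicate 1 (limma adjusted p = 0.00421) and 2.12 without SCN replicate 2 (limma adjusted p = 0.060).

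Most of what separated the populations had no name. Of the 59 called features 40 (67.8%) carried no protein name, against 27.7% of all features, and among those lower in SD it was 28 of 35. The called features were also short, with a median length of 387 bases against 840 over all features. They were not rare transcripts, at a median of 61.9 RPKM against 25.2.

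Contig3123cap was the largest of all, at 1259, 2084 and 653 RPKM in SD and 12.8 and 6.45 RPKM in SCN. Its recovered reads were 2597, 1349 and 77 in SD and only 2 and 0 in SCN, so the SCN values are close to the constant that each library carries. Per M reads it was 491-fold higher in SD, with an exact 95% interval of 136 to 4060 that covers counting error only. Contig3677cap, at 891, 363 and 775 RPKM in SD, had 4 and 0 reads in SCN, a ratio of 170 (66.1 to 623). In the other direction Contig125528 had 3, 0 and 1 reads in SD against 53 and 86 in SCN, a ratio of 142 (54.4 to 530). Contig42697 (9.24, 9.23 and 5.45 RPKM in SD, 701 and 189 in SCN) and Contig12698 (80.4, 65.8 and 46.3 against 970 and 3206) were also lower in SD by limma, by -5.38 and -4.79. Inside runs 1 and 3 the difference was 6.51 and 6.46 for Contig3123cap, -6.10 and -4.88 for Contig42697, and -3.58 and -6.08 for Contig12698. At this depth no feature (0.0% in either direction) had 0 reads in every library of one population and at least 10 in each library of the other.

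Several named genes differed by at least 4-fold in both runs and did not pass the test across libraries. A hemagglutinin or amebocyte aggregation factor (Contig15957), of a family of blood-cell clotting and defence proteins, was at 42.6, 16.2 and 4.11 RPKM in SD and 208 and 789 RPKM in SCN (limma adjusted p = 0.0908). A pyridoxine biosynthesis protein (Contig22998) was at 31.2, 10.1 and 11.9 RPKM in SD against 243 and 113. Peritrophin isoform a (Contig10299), a chitin-binding protein of the gut lining, was at 22.3, 16.1 and 6.05 RPKM against 117 and 38.1. In each of these the SD libraries were all below both SCN libraries, an order found in 9.17% of all features.

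On the other side, the E3 ubiquitin ligase siah1 (Contig1903), which attaches ubiquitin to its targets, was at 490, 332 and 633 RPKM in SD and 96.9 and 139 in SCN (limma adjusted p = 0.0612). Lethal(2)essential for life (Contig4411), in flies a small heat shock protein, was at 378, 403 and 743 RPKM against 49.4 and 173 (limma adjusted p = 0.109). A receptor-type tyrosine phosphatase kappa-like protein (Contig9775), which removes phosphate at the cell surface, was at 87.0, 41.4 and 91.9 RPKM against 16.4 and 11.6 (limma adjusted p = 0.0518). All SD libraries of these genes were above both SCN libraries, an order found in 19.8% of all features.

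With run as a block in the 5 parental libraries, limma called 161 features (1.17%), 71 higher (0.516%) and 90 lower (0.654%) in SD, of which 53 were among the 59. This fit has 1 residual degree of freedom, so its p-values lean on the spread pooled over features. It called 62 features with an informative name, 36 higher and 26 lower, and 48 of them were not called across all 9 libraries. They included siah1 (adjusted p = 0.00486), Contig15957 (adjusted p = 4.18e-14), carbonic anhydrase Contig11567 (adjusted p = 0.000165), a GABA-gated chloride channel (Contig1811cap, adjusted p = 0.00395) and histone H2A (Contig2816, adjusted p = 0.020). For Contig15957 the differences in runs 1 and 3 were far apart, at -2.26 and -7.27, the latter with 1 read in SD replicate 3. Both contigs named as the sex-determining protein fem-1 were higher in SD with run as a block, Contig1099cap by 2.75 (adjusted p = 0.000165) and Contig89 by 2.26 (adjusted p = 0.00488). They were picked out after their values were seen.

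Gene groups were followed with 45 lists matched on protein names, and few of their members passed the test. Median differences are given relative to that of all features. Zinc finger proteins, mostly DNA- or RNA-binding, were above the median of all features in 235 of 305 members, with 86 higher and 7 lower at an unadjusted p under 0.05 and 1 called. Their relative medians in runs 1 and 3 were 0.26 and 0.45. Protein kinases, which pass on signals by phosphorylation, had 31 higher and 1 lower of 147 (0.24 and 0.33), and DNA repair genes had 17 higher and 0 lower of 52 (0.40 and 0.26). Nuclear pore and transport genes had 11 higher and 0 lower of 39 (0.68 and 0.25), and transportin-3 (Contig6344), which carries splicing factors into the nucleus, was at 68.0, 62.2 and 89.2 RPKM in SD and 28.7 and 34.0 in SCN (limma adjusted p = 0.135). Unadjusted shares over all features were 12.3% higher and 5.25% lower. Under quantile normalization the relative medians over all parental libraries were 0.35 for zinc fingers, 0.34 for kinases, 0.26 for DNA repair and 0.37 for nuclear pore. They were also above 0 under median-of-ratios scaling and voom. A scaling by 1 factor per library nearly cancels in a relative median, so it could hardly change them. Other nuclear and regulatory lists varied. Chromatin modification, at 0.31 and 0.12, and ribosome biogenesis and exosome, at 0.38 and 0.03, were also above 0 in both runs. Developmental transcription factors (-0.02 and 0.20) did not keep 1 sign. Nor did cell cycle, replication and histone genes (0.41 and -0.10) or molting and hormone signalling (-0.03 and 0.31).

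Several lists for protein synthesis, protein breakdown and mitochondria differed between the 2 runs. Cytosolic ribosomal proteins had a relative median of -0.06 in run 1 and -0.88 in run 3, and proteasome subunits 0.38 and -0.79. Splicing genes stood at 0.57 and -0.41, mitochondrial ribosomal proteins at 0.27 and -0.73, and mitochondrial import and carrier proteins at 0.21 and -1.12. The tRNA charging enzymes, at 0.38 and 0.28, and the genes encoded in mitochondrial DNA, at -0.47 and -0.77, had the same sign in both. So did the 213 genes of ubiquitin conjugation, ligation and removal, at 0.3 and 0.13. For the cytosolic ribosomal proteins SCN replicate 2 held the higher SCN level, 10.91 against 10.23, and their relative median over all parental libraries went from -0.41 to 0.07 under quantile normalization. The part of that library in the differences of these lists was not tested.

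**Figure D3:**
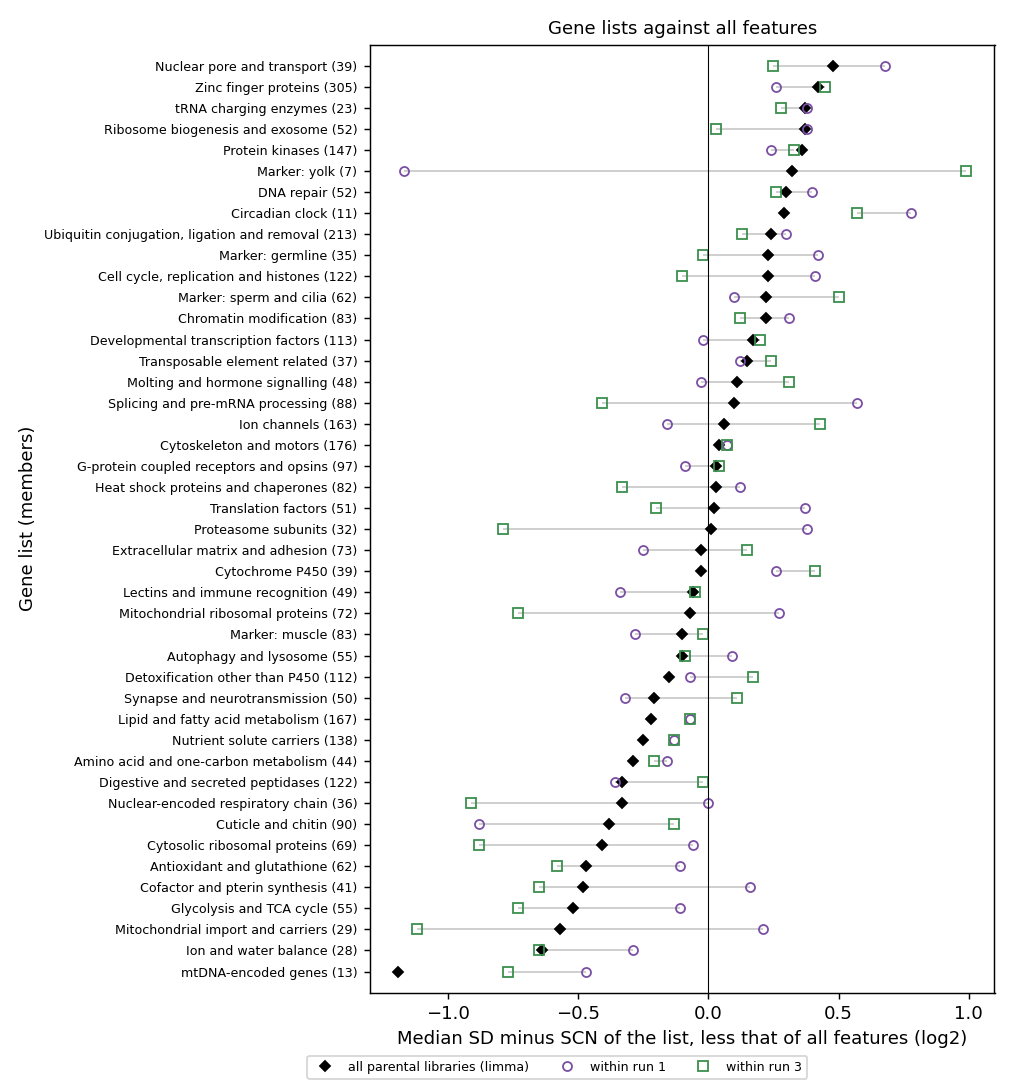
Median SD minus SCN difference of each of the 44 lists with at least 5 members, less the median of all features, from the 9-library fit (diamonds), within run 1 (circles) and within run 3 (squares), in log2(RPKM + 1). Zinc fingers, protein kinases, nuclear pore and DNA repair lie to the right of 0 in both runs, ion and water balance to the left, while yolk runs from -1.17 in run 1 to 0.99 in run 3.

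Of 55 glycolysis and TCA cycle genes, 46 were below the median of all features, 0 were higher and 8 lower at an unadjusted p under 0.05, and none was called. At that p 12.3% of all features were higher and 5.25% lower. The relative median was -0.11 in run 1 and -0.73 in run 3. The succinate dehydrogenase membrane anchor (Contig715cap), which feeds electrons from the TCA cycle into the respiratory chain, was at 87.2, 79.7 and 97.1 RPKM in SD and 164 and 419 in SCN (limma adjusted p = 0.136).

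Ion and water balance genes were below the median of all features in 21 of 28 members. Carbonic anhydrase Contig11567, of the enzymes that turn over carbon dioxide and bicarbonate, was at 73.9, 108 and 52.2 RPKM in SD and 276 and 622 in SCN (limma adjusted p = 0.0616). Aquaporin 10 (Contig1729cap), a water channel, was at 82.0, 31.3 and 52.9 RPKM against 210 and 118 (limma adjusted p = 0.143). Neither overlapped between the populations, and neither passed. Of the 28 members 4 were lower and 2 higher in SD without overlap, orders found in 9.17% and 19.8% of all features.

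The list of heat shock proteins and chaperones was split. Of 82 members 42 were above and 40 below the median of all features, 6 were higher and 1 lower at an unadjusted p under 0.05, and 0 were called. Shares over all features at that p were 12.3% higher and 5.25% lower. The relative median was 0.12 in run 1 and -0.33 in run 3. The list was matched on names and did not hold Contig4411, given above as higher in SD. Its higher member with the smallest p was Contig37294, whose name, gamma-crystallin a, is not that of a chaperone. That contig was at 47.3, 14.1 and 27.0 RPKM in SD and 11.6 and 1.72 in SCN (limma adjusted p = 0.152). Heat shock protein 4 (Contig728_2), a cochaperone of the HSP70 system, was at 409, 481 and 378 RPKM in SD and 176 and 209 in SCN (limma adjusted p = 0.173). DnaJ homolog B9 (Contig11608), a chaperone of the endoplasmic reticulum, was at 55.2, 66.7 and 41.1 RPKM in SD and 90.9 and 112 in SCN (limma adjusted p = 0.210).

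The circadian clock list had 11 members, of which 4 were higher and 0 lower at an unadjusted p under 0.05, and 0 were called. Shares over all features were 12.3% and 5.25%. Without overlap 4 members were higher and 0 lower in SD, orders found in 19.8% and 9.17% of all features. The smallest p was that of a par-domain protein (Contig95), at 430, 1526 and 367 RPKM in SD and 220 and 83.1 in SCN (limma adjusted p = 0.149). Timeless (Contig3957), a partner of period in the insect clock, was at 18.8, 15.5 and 24.0 RPKM in SD and 7.68 and 5.27 in SCN. Period (Contig10598), which represses its own transcription, was at 33.8, 27.9 and 55.0 RPKM against 15.3 and 19.1. Cryptochrome 2 (Contig532), the repressor form, was at 79.5, 88.9 and 94.0 RPKM against 45.1 and 42.3, while cryptochrome 1 (Contig1112), the light-sensing form in flies, overlapped at 47.7, 23.6 and 43.6 against 52.8 and 45.5. The hour of sampling is not given in the labels, and its part in these levels was not tested.

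Of 39 cytochrome P450 contigs, 5 were at least 2-fold higher in SD in both runs and 0 at least 2-fold lower, against 2.77% and 1.98% of all features. Apart from Contig5704, Contig1756cap read 214, 71.9 and 152 RPKM in SD and 53.2 and 30.0 in SCN, and Contig1755cap read 108, 74.4 and 111 RPKM against 47.0 and 2.93. Contig11613 was ordered the other way, at 50.4, 19.3 and 76.9 RPKM in SD and 134 and 115 in SCN. The family was thus mixed, and related P450 contigs can share reads.

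Of 90 cuticle and chitin genes, which build the copepod's outer shell, 14 were at least 2-fold lower in SD in both runs and 1 was higher, against 1.98% and 2.77% of all features. None was called in the 9-library fit, against 0.429% of all features, and 9 were with run as a block, against 1.17%. The median of the list was -0.87 in run 1 and 0.33 in run 3, or -0.88 and -0.13 relative to all features. A cuticle protein 7 contig (Contig78214) was at 223, 424 and 23.5 RPKM in SD and 971 and 425 in SCN, with SD replicate 2 next to SCN replicate 2. Flexible cuticle protein 12 (Contig358) was ordered the other way, at 2762, 7702 and 1753 RPKM in SD against 936 and 218. Without SCN replicate 2 the list's relative median went from -0.38 to -1.16, and without SCN replicate 1 it was 0.28, so its direction rests on which SCN library is used. Cuticle genes follow the molt cycle, and the 2 libraries of run 3 had the lowest cuticle medians. The part of stage mix was not tested.

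**Figure D4:**
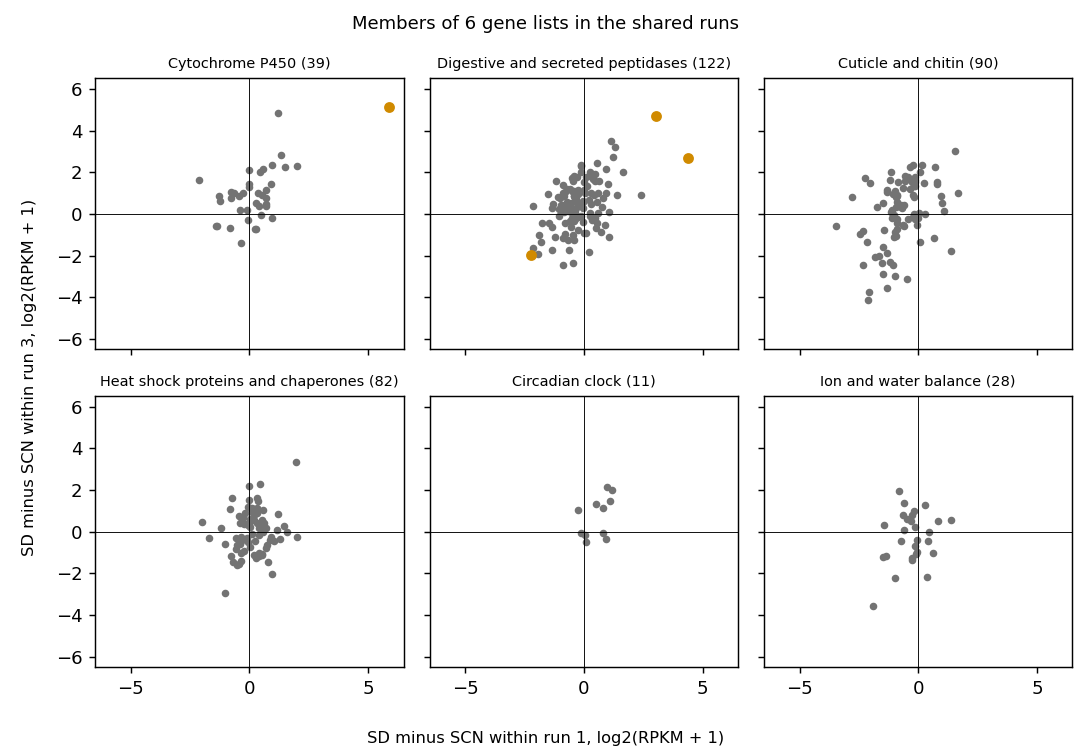
SD minus SCN difference within run 1 (x axis) and run 3 (y axis), in log2(RPKM + 1), for the members of 6 lists, with called members in orange. The 39 P450 contigs hold 1 called member far to the upper right, the peptidases hold called members on both sides, and the 82 heat shock proteins and chaperones gather around 0.

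Markers of sex and stage were checked because the pools mixed all animals. Of the 7 yolk markers 0 were higher and 0 lower at an unadjusted p under 0.05, and vitellogenin 2 (Contig1760cap), a yolk precursor made by females, ranged from 1346 to 14118 RPKM in SD and was at 7755 and 397 RPKM in SCN. The 62 sperm and cilia markers had 10 higher and 2 lower, and the 35 germline markers 8 higher and 1 lower, with nanos homolog 2 called. Spo11 (Contig430), which cuts DNA to start meiotic recombination, was at 21.9, 18.8 and 23.3 RPKM in SD and 7.11 and 3.37 in SCN (limma adjusted p = 0.0688). The 83 muscle markers had 3 higher and 8 lower. In shares this was 16.1% higher and 3.23% lower for sperm and cilia, 22.9% and 2.86% for germline, and 3.61% and 9.64% for muscle. Over all features 12.3% were higher and 5.25% lower. The lists were matched on names, and some members are no clear markers. The lower sperm and cilia member with the smallest p was named spermine oxidase-like (Contig19228), which is not the name of a sperm protein. In the germline list the lower member was named required for meiotic nuclear division protein 1 homolog (Contig2322). The higher muscle member with the smallest p was named for a calponin homology domain (Contig3291). How far stage and sex mix contribute to any difference was not tested.

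Of the summed RPKM, the 13 mitochondrial genes made up 2.62% to 7.48% in the SD libraries and 7.24% and 9.81% in the SCN libraries. All 13 were below the median difference of all features, and none was called. Cytochrome b, a core subunit of complex III, was at 3484, 1604 and 6077 RPKM in SD and 7599 and 17171 in SCN (-1.82, SE 0.65, limma adjusted p = 0.207). Cytochrome c oxidase subunit 1, the catalytic subunit of complex IV, was at 11768, 5686 and 21436 RPKM against 23863 and 42078 (-1.49, limma adjusted p = 0.293). Both had every SD library below every SCN library, as did 6 of the 13 genes in all, against 9.17% of all features, and 0 had the opposite order. Inside runs 1 and 3 the difference was -1.12 and -1.50 for cytochrome b (cytb) and -1.02 and -0.97 for cox1.

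Other mitochondrial genes overlapped between the populations. Subunit nad1 of complex I read 2848, 2590 and 4933 RPKM in SD and 2843 and 3597 in SCN, and its difference was 0.05 over all libraries, 0.00 in run 1 and 0.46 in run 3. For subunit nad2 it was -0.68 over all libraries and -0.42 and 0.40 in the runs. The populations differ strongly in mitochondrial sequence, and the sources used here do not say which population's contigs each library was aligned to.

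**Figure D5:**
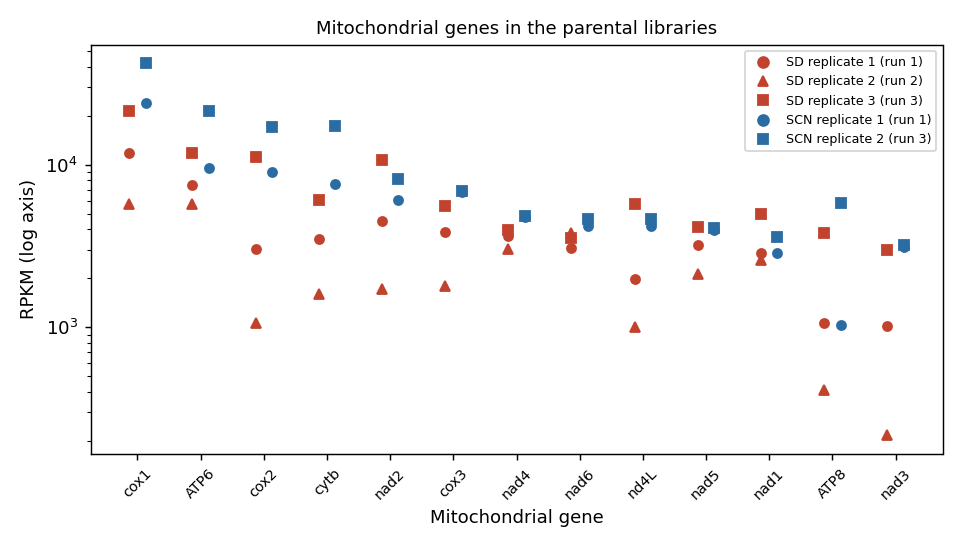
RPKM on a log axis of the 13 mitochondrial genes, ordered by mean level, 1 point per parental library with SD in red and SCN in blue. Cytochrome c oxidase subunit 1 spans 5686 to 42078 RPKM, and SD replicate 2 is the lowest library for most genes.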

How the data were processed

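The authors deposited 1 table of RPKM (reads scaled by contig length and library total) per library, per the file headers. A feature is a matched pair of SD and SCN contigs, or a mitochondrial gene, with a predicted protein name. For the aligner, counting method and reference contigs, nothing is stated in the labels. Contigs carry the SD identifier, and 0 of them matched the gene table of the species, so no coordinates or sequences are given.

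The comparison, lists and named genes were chosen with earlier results of these data known. Word patterns of the lists were corrected after the protein names had been read, and some members still belong elsewhere. Genes named were those called with an informative name, the 6 largest unnamed calls per direction, the extreme members of each list, named features at least 4-fold apart in both runs and the mitochondrial genes. Further list members are named as examples chosen after their values were seen.

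The main test was limma (3.58.1, R 4.3.3), with its variance trend, run on log2(RPKM + 1) of 9 libraries with 4 group means and 5 residual degrees of freedom. Low RPKM values lie on even steps. Whole reads were recovered for 13758 of 13758 features, with 100% of values within 0.05 read of a whole number, on the assumption that the lowest value of a library is 0 reads. The values hold an added constant of 1.12 to 18.4 reads, which pulls low features together. The share of even reads was 49.1% to 52.6% in every library, so no library held only even reads. This share does not test other common steps in the reads. Recovered reads gave depths and 1 alternative (limma-voom). Lengths are those implied by the steps, and 91.6% were multiples of 3, so most are coding lengths. The recovery and the limma step were tested on simulated data. Alternatives were 21 other fits. No replicate pair agreed within sampling noise (chi-square per feature 15.4 to 69.1).

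Runs pair the libraries by the labels. Deviations from the group means correlated at 0.23 for the run 1 pair and 0.32 for the run 3 pair. Such deviations sum to 0 within each population, so the correlations are tied to each other and do not test the pairing.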

Additional observations from a re-analysis of the deposited data

How the results depend on the processing

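The 59 calls, 24 higher and 35 lower in SD, moved with the fit. The 5 parental libraries alone gave 7 (2 higher, 5 lower), quantile normalization 95 (66 lower), median-of-ratios scaling 57 lower, limma without a trend 15 higher and limma-voom on recovered reads 36 (3 higher). These scalings move the median of all features from 0.23 to 0.03, -0.02 and, for voom, 0.01, and voom made 8.33% of its calls higher in SD against 40.7%. Run as a block gave 161 (71 and 90) in 5 libraries and 157 (67 and 90) in 4. Without both run 3 libraries there were 15 higher and 53 lower. Leaving out 1 library at a time gave 11 to 3085 calls, 2 to 2490 higher and 9 to 595 lower, the most without SCN replicate 1. The cause was not tested. Features at least 4-fold higher in both runs fell in number from 25 to 16 under median-of-ratios scaling. The 26 called features named by the rule kept their sign in all 21 alternatives. Fits that change only the spread, such as those without 1 hybrid library, leave the difference as it was, so the sign could not change there. Nor could it change on leaving out a parental library, blocking or changing the pseudocount, because the groups of called features do not overlap. Only the other scalings could have changed it. Uncalled values near 0 and several list medians changed sign, such as that of the cytosolic ribosomal proteins, from -0.41 to 0.07 under quantile normalization.

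The replicate block by the numbers of the labels gave 90 calls, 56 of them lower. Replicate numbers do not pair the libraries by run, since SD replicate 2 and SCN replicate 2 had different runs. Their deviations correlated at -0.18, which is tied to the values of the run pairs and is no separate evidence on pairing.

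Of the 26 called features named by the rule, 26 passed with run as a block, 11 with voom, 7 in the parental libraries alone and 6 without SD replicate 1. Contig4724, Contig1785, Contig3123cap, Contig3677cap, Contig42697 and Contig25883 passed in all 21 alternatives, heat shock factor and the P450 Contig5704 in 7, the chymotrypsin-like Contig1226cap in 18 and nanos in 5, the fewest of the 26. With 2 SCN libraries, SCN replicate 2 at 1.75 M reads and SD replicate 3 at 1.00 M, the precision is lowest for features with few reads.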
